A study of Mus musculus with 6 samples.

Results

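The transcripts described here encode subunits of the receptors for GABA, glycine and glutamate in the mouse retina: 41 genes, chosen by name, of 31711 genes or names on the array. They comprise 14 GABA-A receptor subunits (5 alpha, 2 beta, 2 gamma, 3 of the delta, epsilon and theta class and 2 rho), 5 glycine receptor subunits, 16 subunits of ionotropic glutamate receptors (4 AMPA, 5 kainate, 6 NMDA and 1 delta) and 6 metabotropic glutamate receptors. A total of 56 probes on the array carry these gene names; 53 probes of 39 genes passed the filter on dim signals, and the alpha subunit Gabra6 and the theta subunit Gabrq did not. Male C57BL/6 mice, 8 weeks old at injection, received titanium dioxide nanoparticles at the dose called PTC in the labels, nanoparticles at 10 times that dose (10PTC), or phosphate-buffered saline (PBS) as control, into the vitreous of the right eye. Each group had 12 mice, the eyes were taken 7 days later, and retinas were pooled 4 to a tube, so that 3 pools per dose were measured. RNA of a treated pool carried the dye Cy5 and PBS control RNA the dye Cy3 on each of the 6 arrays, with no array labelled the other way round. An effect of the dyes on a probe therefore cannot be told apart from treatment, and the ratios leave out the spread of the control itself. Every value below is log2 of treated over PBS unless another scale is named. Each p-value of the main fit rests on a spread shared by both doses, while each SD is that of its own dose.

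GABA-A and glycine receptors are pentameric chloride channels that carry fast inhibition, and in the retina they serve amacrine, bipolar and ganglion cells. AMPA, kainate and NMDA receptors are tetrameric cation channels opened by glutamate, which photoreceptors release onto horizontal and bipolar cells and bipolar cells release onto amacrine and ganglion cells. Metabotropic glutamate receptors act through G proteins and tune release and excitability on both sides of the synapse.

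The probes of a subunit read different stretches of its transcripts, and probes of Gria2, Grin2a and Grm5 gave different ratios. They are shown because the value of a subunit depends on which of its probes is used. The lines give bases 1 to 30 of each 60-base probe as listed in the array design, with the mm9 position of the whole probe. By the order of the listed coordinates the probes lie on the minus strand, except those of Grm5 on the plus strand.
Gria2, bright probe, chr3:80495725-80495784: tttaatttgggggatattccttggggaaaa
Gria2, dim probe, chr3:80488858-80488917: tttcatactttacctaatggcaatctggag
Grin2a, probe used, chr16:9577803-9577862: ggtaaacgttggatgtccaatagcacccta
Grin2a, other probe, chr16:9579338-9579397: atagtctcagtaactatgtgtttcagggac
Grm5, brightest probe, chr7:95282581-95282640: attgtataatggctctgctgcagtctgtga
Grm5, middle probe, chr7:94732759-94732818: tgttcactcactgatccaaggctagccagc
Grm5, dimmest probe, chr7:95279335-95279394: actctcatcatcagagattacacgcagagt
The sources used here do not say which probes lie in coding sequence and which in a UTR. For each gene the brightest probe was used, and the values of the other probes printed here are given further below.

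Each array had 43020 spots of gene probes, of which 71.0% to 85.5% were well above background in Cy5 or Cy3 and none was saturated. PTC pools 1 and 2 were hybridised on slide 1, and PTC pool 3 and all 10PTC pools on slide 2. PTC pool 1 stood apart: the median over the 39 subunits was -0.34 there, against -0.11 and -0.15 in PTC pools 2 and 3 and -0.19 to -0.093 in the 10PTC pools. Markers of rods, cones, bipolar, amacrine, ganglion, horizontal and Müller glial cells passed the filter, except 1 of the 11 amacrine markers. Markers of skeletal muscle did so too, and all 6 of them were lower than in the PBS control RNA, with medians of -3.0 at PTC and -2.43 at 10PTC.

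At PTC, 20 of the 39 subunits tested fell and 1, the kainate receptor subunit Grik3, rose (limma, adjusted p under 0.05 over all genes). Among the 26136 genes tested, 16.2% (4246) were lower and 16.9% (4404) higher at that dose, a split that was 4218 lower and 8210 higher with arrays centred on their median in place of loess. The median over the subunits was -0.21 and 32 of them lay below 0, beside a median of -0.00075 over all genes. At 10PTC, 12 subunits fell and 3 rose (Gabra5, Grik3 and Grm3), where 13.3% of all genes (3464) were lower and 14.4% (3770) higher, a split of 5000 and 9640 with median centring. The median was then -0.13, and 30 subunits lay below 0. The probes of Gabra5 and Grm3 were near background. Both passed the filter with the help of arrays on which only treated RNA was above it. On all 6 arrays 22 subunits were below 0, a pattern found in 21.2% of all genes. Above 0 on every array were 2 subunits (Grik3 and Grm3), and 5722 of the 26136 genes tested. The shifts were small, between -0.58 and 0.24 at PTC and between -0.48 and 0.29 at 10PTC. In whole tissue, fewer cells of a type and less RNA per cell cannot be told apart.

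Without PTC pool 1, 14 subunits were lower and 2 higher at PTC, and the median was -0.14, while 3126 of all genes were lower. Gabra3 (-0.19, adjusted p = 0.0697), Gabra4 (-0.17, adjusted p = 0.0635), Grik2 (-0.15, adjusted p = 0.181), Grin2b (-0.14, adjusted p = 0.168), Grin3a (-0.19, adjusted p = 0.0548) and Grm4 (-0.19, adjusted p = 0.165) then no longer passed. Without PTC pool 2, 18 were lower and none higher (3624 of all genes lower), and Grik2 (-0.26), Grik3 (0.20), Grik4 (-0.19), Grin2b (-0.21) and Grm4 (-0.25) no longer passed. Without PTC pool 3, 14 were lower and none higher (2468 of all genes lower). Gabra3 (-0.39), Gabra4 (-0.30), Glra4 (-0.17), Grik2 (-0.24), Grik3 (0.20), Grik4 (-0.19), Grin2b (-0.19) and Grin3a (-0.34) then no longer passed, although 5 of these 8 ratios were farther from 0 than with all pools. The number lower at PTC was 13 with slide as a block (2962 of all genes lower), 0 within slide 1 (125 of all genes lower there) and 4 within slide 2 (756 of all genes). At 10PTC, whose arrays share a slide, none was lower with slide as a block or without 10PTC pool 1 or pool 3. Over all genes these settings left 410, 586 and 703 lower. Without 10PTC pool 2, 7 were lower (2386 of all genes), and without any 1 of the 10PTC pools none was higher. Within slide 2, 16 were lower at 10PTC (4458 of all genes).

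Median centring in place of loess gave other calls. At PTC 13 subunits were then lower, 12 of them among the 20 lower by loess. The calls of Gabra3 (-0.18), Gabrr2 (-0.11), Grik2 (-0.19), Grik4 (-0.072), Grin2b (-0.12), Grin3a (-0.21), Grm2 (-0.094) and Grm4 (-0.17) were lost there. At 10PTC 11 were lower, 5 of them among the 12 lower by loess. The calls of Gabra3 (-0.19), Gria1 (-0.0047), Gria2 (-0.21), Grik5 (-0.12), Grm2 (-0.020), Grm5 (-0.14) and Grm7 (-0.034) were lost at that dose.

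**Figure D1:**
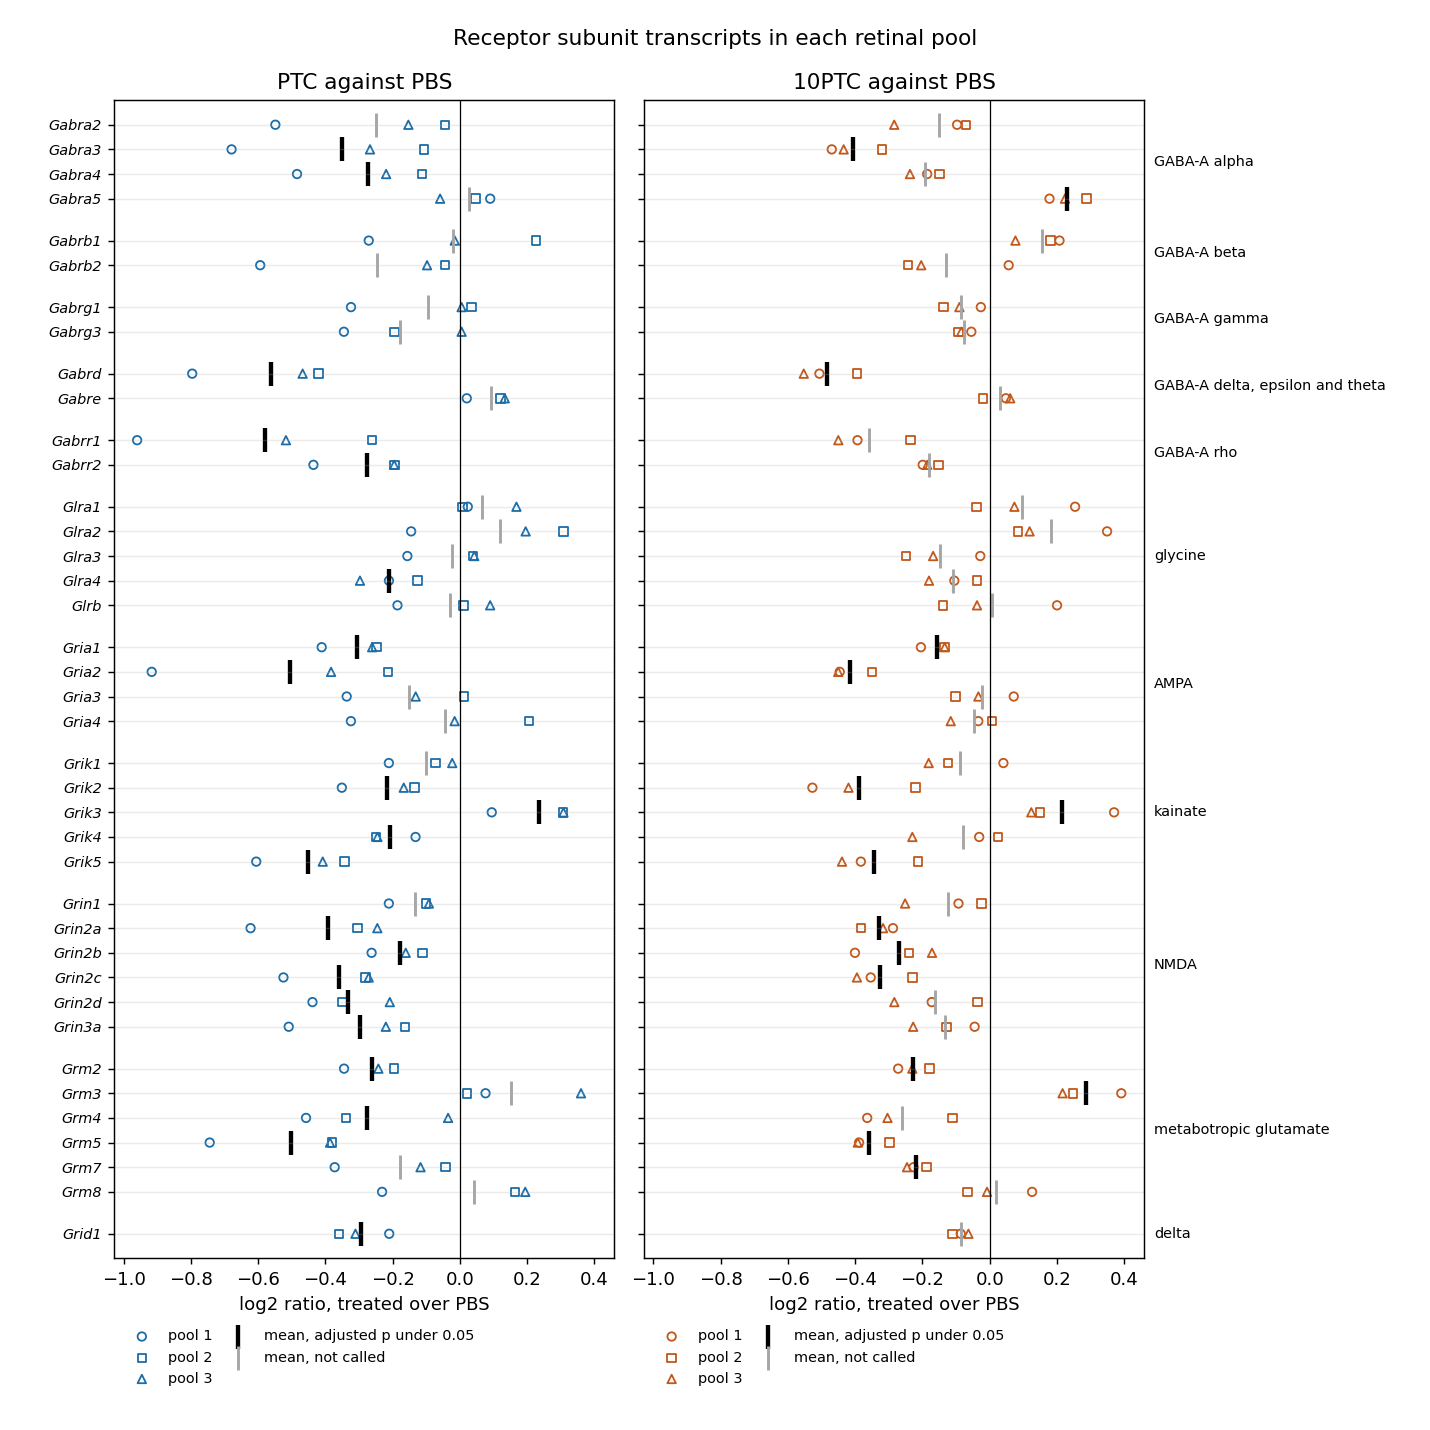
Log2 ratio of treated over PBS (x axis) for each of the 39 subunits tested (rows, ordered by receptor class), at PTC on the left and 10PTC on the right. Open symbols are single pools; upright bars are means over 3 pools, black where the limma adjusted p is under 0.05 and grey where it is not. Most symbols lie left of 0 in both panels, and the circles of PTC pool 1 lie farthest left in most rows of the PTC panel.

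The plot of single pools shows how the subunits of a class varied. Among all members Gabrr1 and Gabrd were lowest at PTC, and Gabrd and Gria2 were lowest at 10PTC. Grik3 and Grm3 were highest at PTC, and Grm3 and Gabra5 were highest at 10PTC.

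Of the 12 GABA-A receptor subunits tested, 5 fell and none rose at PTC (Gabra3, Gabra4, Gabrd, Gabrr1 and Gabrr2). At 10PTC 2 fell (Gabra3 and Gabrd) and 1 rose (Gabra5). The medians were -0.25 at PTC and -0.14 at 10PTC. Over all genes 16.2% were lower and 16.9% higher at PTC, and 13.3% and 14.4% at 10PTC. The GABA-A counts at 10PTC are near those shares. The subunits of the standard beta and gamma classes, which complete most synaptic receptors, passed the test at neither dose. Gabrd encodes the delta subunit of extrasynaptic receptors that carry tonic inhibition (probe at chr4:154759071-154759089, minus strand, where the design lists 19 of the 60 bases). Its ratios were -0.80, -0.42 and -0.47 at PTC and -0.51, -0.39 and -0.55 at 10PTC. All 6 pools were low, and those of the doses overlapped. The delta subunit averaged -0.56 ± 0.20 (SD, n = 3, limma adjusted p = 0.00283) at PTC and -0.48 ± 0.081 (SD, n = 3, adjusted p = 0.00576) at 10PTC.

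Gabra3 encodes an alpha subunit, the class that shapes the GABA site together with beta subunits (probe at chrX:69678031-69678090, minus strand). Its ratios were -0.68, -0.11 and -0.27 at PTC and -0.47, -0.32 and -0.43 at 10PTC. PTC pool 2 was nearest to 0, and the 10PTC pools lay inside the range of the PTC pools. The mean of Gabra3 was -0.35 ± 0.29 (SD, n = 3, limma adjusted p = 0.0317) at PTC and -0.41 ± 0.078 (SD, n = 3, adjusted p = 0.0228) at 10PTC. The other alpha subunits differed. Gabra4 was lower at PTC (-0.27 ± 0.19, adjusted p = 0.0232) with a value of -0.19 ± 0.044 at 10PTC (adjusted p = 0.0806), and Gabra2 had -0.25 and -0.15 without passing the test.

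Gabra5, an alpha subunit of extrasynaptic receptors, rose at 10PTC (probe at chr7:64663486-64663545, minus strand). Its ratios were 0.090, 0.047 and -0.059 at PTC and 0.18, 0.29 and 0.22 at 10PTC. All 10PTC pools were above all PTC pools. The mean was 0.026 ± 0.077 at PTC (adjusted p = 0.697) and 0.23 ± 0.055 at 10PTC (SD, n = 3, limma adjusted p = 0.0135). The probe was near background. At PTC it stood well above background in Cy5 on 0 of 3 arrays and in Cy3 on 1. At 10PTC it stood well above background in Cy5 on 2 of 3 arrays and in Cy3 on 0. After between-array scaling, the mean Cy5 level at 10PTC was 1.16-fold a reference Cy3 level. That reference was the higher of the probe's own Cy3 level and the lowest Cy3 level well above background on each array. Cy5 itself was not above background on every 10PTC array, and dye bias is possible, so this value sets no lower limit on a rise. The 3 arrays by which the probe passed the filter include the 2 on which treated RNA was above background at 10PTC. With arrays centred on their median rather than by loess, the ratio of Gabra5 at 10PTC was -0.12.

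The rho subunits form the GABA receptors long called GABA-C, found on bipolar cell terminals. Gabrr1 had the lowest mean of all members at PTC (probe at chr4:33250489-33250548, plus strand). Its ratios were -0.96, -0.26 and -0.52 at PTC and -0.39, -0.24 and -0.45 at 10PTC. All pools were low, PTC pool 1 most so. Over the pools Gabrr1 averaged -0.58 ± 0.35 (SD, n = 3, limma adjusted p = 0.0101) at PTC and -0.36 ± 0.11 (SD, n = 3, adjusted p = 0.0572) at 10PTC. Without PTC pool 1 the PTC ratio was -0.39 (adjusted p = 0.015) and the adjusted p at 10PTC was 0.00631. Gabrr2, whose gene adjoins Gabrr1 on chromosome 4, had -0.27 ± 0.14 at PTC (adjusted p = 0.0107) and -0.18 ± 0.024 at 10PTC (adjusted p = 0.0522).

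The medians of the glycine receptor subunits lay nearer to 0 than those of the GABA-A, ionotropic and metabotropic receptors. Of 5 tested, only Glra4, an alpha subunit, fell at PTC (-0.21 ± 0.085, adjusted p = 0.0178), where its probe stood above background on 1 of 3 arrays in each channel, and none passed at 10PTC, where 1 of the 5 had an unadjusted p under 0.05 in limma. The count of 1 in 5 at PTC is near the 16.2% of all genes that were lower at that dose. The class medians were -0.025 at PTC and 0.0079 at 10PTC, and the sign of both turned with the processing: under median centring they were 0.026 and -0.024. Glrb, the beta subunit that ties the receptor to the gephyrin scaffold, had -0.028 at PTC and 0.0079 at 10PTC. Glra2 was the highest of the class, at 0.12 and 0.18, without passing the test.

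**Figure D2:**
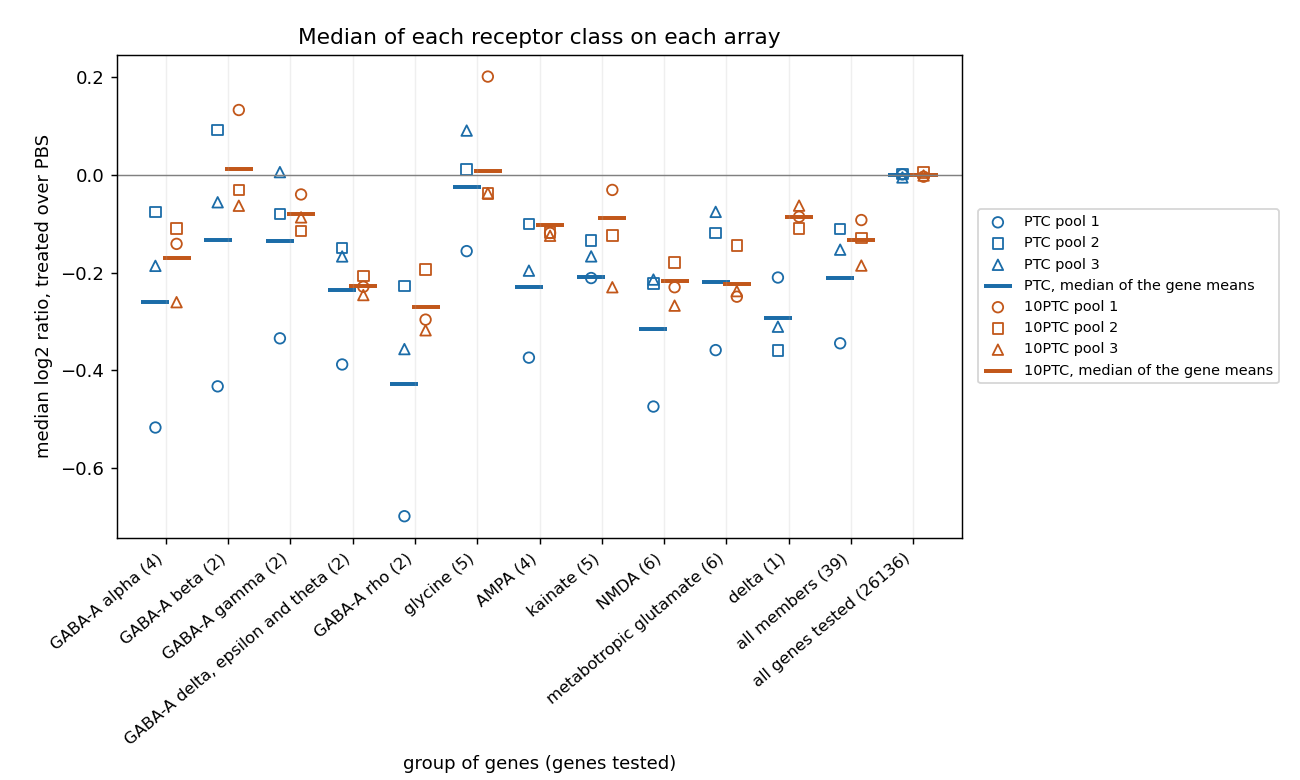
Median log2 ratio of treated over PBS (y axis) over the tested members of each receptor class (x axis, number tested in brackets), with all members and all genes at the right. Open symbols are single arrays, PTC left and 10PTC right of each tick, and bars are medians of the gene means; the medians of GABA-A beta, GABA-A gamma and glycine receptor subunits lie on both sides of 0, those of the other receptor classes below 0 on all 6 arrays, and those of all genes near 0.

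The plot of class medians places NMDA and rho subunits below the other classes with more than 1 member at PTC, at medians of -0.31 and -0.43. Ionotropic glutamate receptors had 11 of 16 subunits lower and 1 higher at PTC and 7 lower and 1 higher at 10PTC, with medians of -0.26 and -0.15. The shares over all genes were 16.2% lower and 16.9% higher at PTC, and 13.3% and 14.4% at 10PTC. The rho median rests on 2 genes.

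Among AMPA receptor subunits, which carry the fastest glutamate currents, Gria1 and Gria2 fell at both doses, and Gria3 (-0.15 and -0.021) and Gria4 (-0.045 and -0.048) passed at neither. Gria2 is the subunit that, once its RNA is edited, keeps calcium out of the channel. Its ratios were -0.92, -0.21 and -0.38 at PTC and -0.45, -0.35 and -0.45 at 10PTC. PTC pool 1 was far lower than the other pools, and the 10PTC pools lay close together. This gave Gria2 a mean of -0.50 ± 0.37 (SD, n = 3, limma adjusted p = 0.0164) at PTC and -0.42 ± 0.056 (SD, n = 3, adjusted p = 0.0369) at 10PTC. Without PTC pool 1 the PTC ratio was -0.30 (adjusted p = 0.0151).

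Gria1 had ratios of -0.41, -0.25 and -0.26 at PTC and -0.20, -0.13 and -0.13 at 10PTC (probe at chr11:57143613-57143672, plus strand). Every 10PTC pool was nearer to 0 than every PTC pool. The mean was -0.31 ± 0.090 (SD, n = 3, limma adjusted p = 0.00431) at PTC and -0.16 ± 0.041 (SD, n = 3, adjusted p = 0.0464) at 10PTC. The call at 10PTC was lost in 11 of 25 alternative settings.

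Kainate receptor subunits split. Grik2, Grik4 and Grik5 fell at PTC, Grik2 and Grik5 fell at 10PTC, and Grik3 rose at both doses. Grik5, a high-affinity subunit that needs another kainate subunit to form a channel, had ratios of -0.61, -0.34 and -0.41 at PTC and -0.38, -0.21 and -0.44 at 10PTC (probe at chr7:25794943-25795002, minus strand). All pools were low and the doses overlapped. Grik5 averaged -0.45 ± 0.14 (SD, n = 3, limma adjusted p = 0.00347) at PTC and -0.34 ± 0.12 (SD, n = 3, adjusted p = 0.0109) at 10PTC.

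Grik2, a pore-forming kainate subunit, had ratios of -0.35, -0.14 and -0.17 at PTC and -0.53, -0.22 and -0.42 at 10PTC (probe at chr10:48819269-48819325, minus strand, with 57 of the 60 bases listed). The lowest pool was a 10PTC pool. The mean of Grik2 was -0.22 ± 0.12 (SD, n = 3, limma adjusted p = 0.0474) at PTC and -0.39 ± 0.16 (SD, n = 3, adjusted p = 0.00877) at 10PTC. Grik3, another pore-forming kainate subunit, had ratios of 0.095, 0.31 and 0.31 at PTC and 0.37, 0.15 and 0.12 at 10PTC (probe at chr4:125391317-125391376, plus strand). All 6 pools were above 0, and PTC pool 1 was the lowest. Over the pools Grik3 averaged 0.24 ± 0.12 (SD, n = 3, limma adjusted p = 0.0316) at PTC and 0.21 ± 0.14 (SD, n = 3, adjusted p = 0.0493) at 10PTC. With slide as a block Grik3 had 0.25 (adjusted p = 0.0528) at PTC and 0.16 (adjusted p = 0.349) at 10PTC. Grik4 had -0.21 ± 0.067 (adjusted p = 0.0311) and -0.079 ± 0.13 (adjusted p = 0.344), and Grik1 had -0.10 and -0.088 without passing.

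NMDA receptor subunits were alike in direction by the probes used. All 6 lay below 0 on all 6 arrays, as did 21.2% of all genes. The other probe of Grin2a was above 0 in 10PTC pool 2 (0.094). Of the 6 subunits, 5 fell at PTC and 3 (Grin2a, Grin2b and Grin2c) at 10PTC. Over all genes 16.2% were lower at PTC and 13.3% at 10PTC. The exception at PTC was Grin1, the obligatory glycine-binding subunit, with -0.13 ± 0.066 at PTC (adjusted p = 0.0983) and -0.12 ± 0.12 at 10PTC (adjusted p = 0.135). Its probe stood above background on 1 of 3 PTC arrays in each channel, and median centring called it lower at both doses (-0.27, adjusted p = 0.00773, and -0.37, adjusted p = 0.00185). Grin2a, a glutamate-binding subunit that sets channel kinetics, had ratios of -0.62, -0.30 and -0.25 at PTC and -0.29, -0.38 and -0.32 at 10PTC. PTC pool 1 was the lowest. This gave Grin2a a mean of -0.39 ± 0.20 (SD, n = 3, limma adjusted p = 0.00776) at PTC and -0.33 ± 0.049 (SD, n = 3, adjusted p = 0.0172) at 10PTC.

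Grin2b, the glutamate-binding subunit typical of early synapses, had ratios of -0.26, -0.11 and -0.16 at PTC and -0.40, -0.24 and -0.17 at 10PTC (probe at chr6:135681653-135681712, minus strand). The pools of the doses overlapped. Grin2b averaged -0.18 ± 0.077 (SD, n = 3, limma adjusted p = 0.0468) at PTC and -0.27 ± 0.12 (SD, n = 3, adjusted p = 0.0144) at 10PTC. Its other probe, nearly as bright (mean log2 intensity 7.61 against 7.69), was called at neither dose when tested singly. That probe had -0.12 ± 0.063 (limma adjusted p = 0.0704) at PTC and -0.043 ± 0.037 (adjusted p = 0.49) at 10PTC. Grin2c, also a glutamate-binding subunit, had ratios of -0.52, -0.28 and -0.27 at PTC and -0.35, -0.23 and -0.39 at 10PTC (probe at chr11:115110483-115110542, minus strand). Here too the pools of the doses overlapped. The mean of Grin2c was -0.36 ± 0.14 (SD, n = 3, limma adjusted p = 0.0062) at PTC and -0.33 ± 0.086 (SD, n = 3, adjusted p = 0.0112) at 10PTC. Grin2d had -0.33 ± 0.12 (adjusted p = 0.00827) at PTC and -0.16 ± 0.12 (adjusted p = 0.0926) at 10PTC. Grin3a, a glycine-binding subunit that lowers calcium entry, had -0.30 ± 0.19 (adjusted p = 0.0193) at PTC and -0.13 ± 0.091 (adjusted p = 0.204) at 10PTC. Its dimmer probe, tested singly, was lower at both doses (-0.23 ± 0.027, adjusted p = 0.00722, and -0.20 ± 0.051, adjusted p = 0.0152).

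Metabotropic receptors had 3 of 6 members lower and none higher at PTC (Grm2, Grm4 and Grm5), and 3 lower (Grm2, Grm5 and Grm7) and 1 higher (Grm3) at 10PTC. Among all genes 16.2% were lower and 16.9% higher at PTC, and 13.3% and 14.4% at 10PTC. Grm5, which couples to Gq and calcium release, had ratios of -0.74, -0.38 and -0.39 at PTC and -0.39, -0.30 and -0.39 at 10PTC. PTC pool 1 was the lowest and the other 5 pools lay close together. Over the pools Grm5 averaged -0.50 ± 0.21 (SD, n = 3, limma adjusted p = 0.0037) at PTC and -0.36 ± 0.053 (SD, n = 3, adjusted p = 0.0141) at 10PTC. Grm2, a Gi-coupled receptor that limits transmitter release, had ratios of -0.34, -0.20 and -0.24 at PTC and -0.27, -0.18 and -0.23 at 10PTC (probe at chr9:106547222-106547281, minus strand). All pools were below 0 within a narrow range. This gave Grm2 a mean of -0.26 ± 0.076 (SD, n = 3, limma adjusted p = 0.00645) at PTC and -0.23 ± 0.047 (SD, n = 3, adjusted p = 0.0132) at 10PTC. Median centring gave Grm2 -0.094 (adjusted p = 0.151) and -0.020 (adjusted p = 0.743).

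Grm3, the close relative of Grm2, which glia also express, had ratios of 0.076, 0.021 and 0.36 at PTC and 0.39, 0.25 and 0.22 at 10PTC (probe at chr5:9485369-9485428, minus strand). All were above 0 and the doses overlapped. Its mean was 0.15 ± 0.18 at PTC (adjusted p = 0.142) and 0.29 ± 0.093 at 10PTC (SD, n = 3, limma adjusted p = 0.0258). At PTC the probe stood well above background in Cy5 on 2 of 3 arrays and in Cy3 on 0, and at 10PTC in Cy5 on 3 and in Cy3 on 1. The probe thus met the filter of 3 arrays only through Cy5, the treated RNA, and the call at 10PTC carries that limit. Centring on the median rather than loess gave Grm3 -0.029 at 10PTC. Of the release-limiting receptors Grm4, Grm7 and Grm8, Grm4 had -0.28 (adjusted p = 0.0422) at PTC and -0.26 (adjusted p = 0.0584) at 10PTC. The dimmer probe of Grm4, tested singly, had -0.064 (limma adjusted p = 0.389) and -0.10 (adjusted p = 0.194). Grm7 had -0.18 (adjusted p = 0.0713) and -0.22 (adjusted p = 0.0417), and Grm8 had 0.042 and 0.017 without passing. Grid1, a delta-type glutamate receptor that binds presynaptic partners, had -0.29 ± 0.076 (adjusted p = 0.00394) at PTC and -0.087 ± 0.024 (adjusted p = 0.183) at 10PTC.

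**Figure D3:**
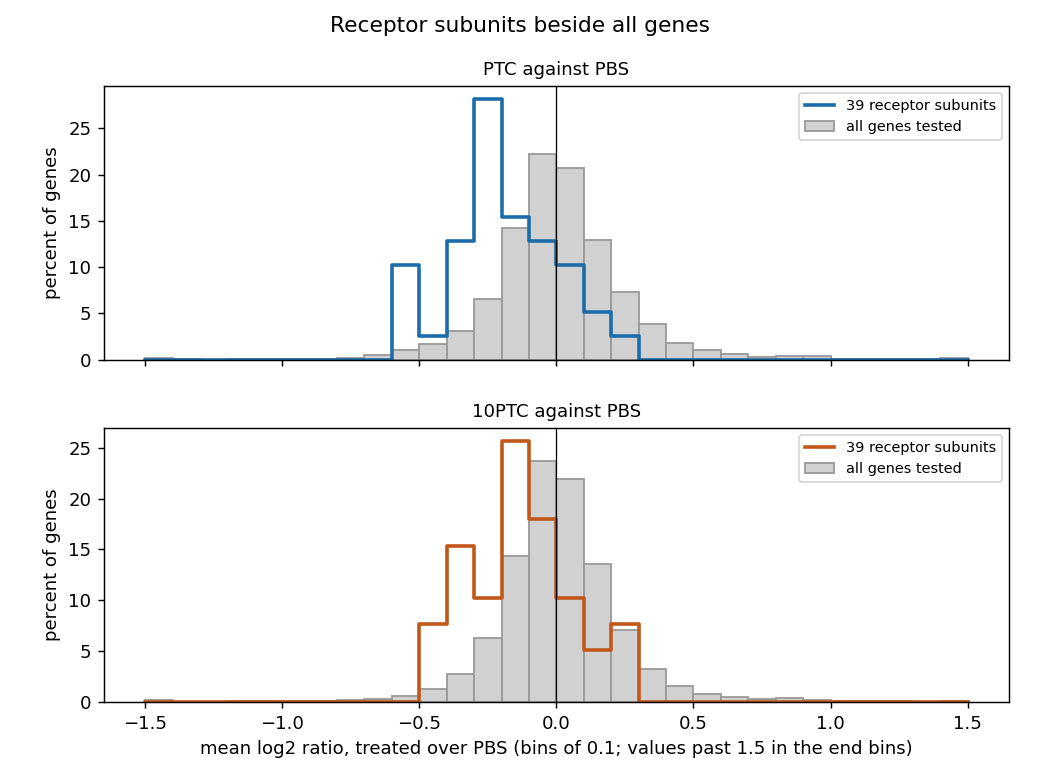
Percent of genes (y axis) by mean log2 ratio of treated over PBS (x axis, bins of 0.1), for all 26136 genes tested (grey bars) and for the 39 subunits (line), at PTC above and 10PTC below. The median of the subunits lies left of that of all genes, at -0.21 at PTC and -0.13 at 10PTC, and the distributions overlap.

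The direct comparison of 10PTC with PTC asked whether the higher dose changed the subunits further. Of the 39 subunits none passed limma's adjusted p of 0.05, nor did any of the 26136 genes tested (0%), and 2 subunits, Gabra5 and Grid1, had an unadjusted p under 0.05 where 8.16% of all genes did. The ratio was higher at 10PTC than at PTC in 30 of 39 subunits, with a median difference of 0.077. Without PTC pool 1 it was higher in 16, with a median difference of -0.040, and within slide 2 also in 16. The number of subunits leaning to either side thus rested on that pool.

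Pools of the doses did not overlap in 3 of the 39 subunits, each higher at 10PTC. That is no larger a share than over all genes (8.92% in that direction and 6.58% in the other). Gabra5 had 0.18, 0.29 and 0.22 at 10PTC, against 0.090, 0.047 and -0.059 at PTC. Its Cy5 signal was well above background on 0 of 3 PTC arrays, so that the size of the difference is not known (limma adjusted p = 0.574). The fitted difference ran between 0.042 and 1.07 over the alternative settings. Grid1 had -0.086, -0.11 and -0.063 at 10PTC, against -0.21, -0.36 and -0.31 at PTC. The difference of Grid1 was 0.21 (95% interval 0.059 to 0.35, limma adjusted p = 0.57). For Gria1 it was 0.15 (-0.0095 to 0.31, limma adjusted p = 0.622). Array quality weights called 2 of them, Gabra5 and Grid1, higher at 10PTC, and the count over all genes under those weights is not given here. An interval across 0 does not show that the doses acted alike.

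Among the 13 subunits with several probes above background, the brightest probe had the lowest mean in 10 at PTC and in 8 at 10PTC. The same count over all genes with several probes was not made, so these numbers are no result about the subunits. When every probe was tested singly, 15.9% of all probes were lower at PTC and 12.9% at 10PTC. The brightest probe was called lower for 8 of these subunits at PTC, and another probe of the gene was called too for 2, Grin3a and Grm5. At 10PTC these numbers were 6 and 1. No subunit had probes called in opposite directions, although the signs of the means differed in 4 at each dose. Gabrg1 was among them at both doses. Its dim probe passed the filter only through Cy5, the treated RNA, on 1 PTC array and 2 10PTC arrays. The probes of Gria2 printed above had -0.50 ± 0.37 for the bright probe and -0.13 ± 0.20 for the dim one at PTC (SD, n = 3, limma adjusted p = 0.0153 and 0.193).

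For Grin2a, whose probes were nearly as bright as each other (mean log2 intensity 7.69 and 7.58), the means were -0.39 ± 0.20 and -0.096 ± 0.067 at PTC. These probes lay close in brightness and apart in ratio. The probes of Grm5 had -0.50 ± 0.21, -0.31 ± 0.062 and -0.097 ± 0.14 from the brightest to the dimmest at PTC, and -0.36 ± 0.053, -0.38 ± 0.10 and 0.049 ± 0.037 at 10PTC. The brightest and the middle probe were called at both doses and the dimmest at neither. With the offset of the background correction set to 0, a comparison of probes chosen after seeing the data, the PTC means were -0.53, -0.40 and -0.16. For Gabra3 the bright probe had -0.35 ± 0.29 and the dim one 0.094 ± 0.18 at PTC, and for Grik2 the means at 10PTC were -0.39 ± 0.16 and -0.064 ± 0.10.

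**Figure D4:**
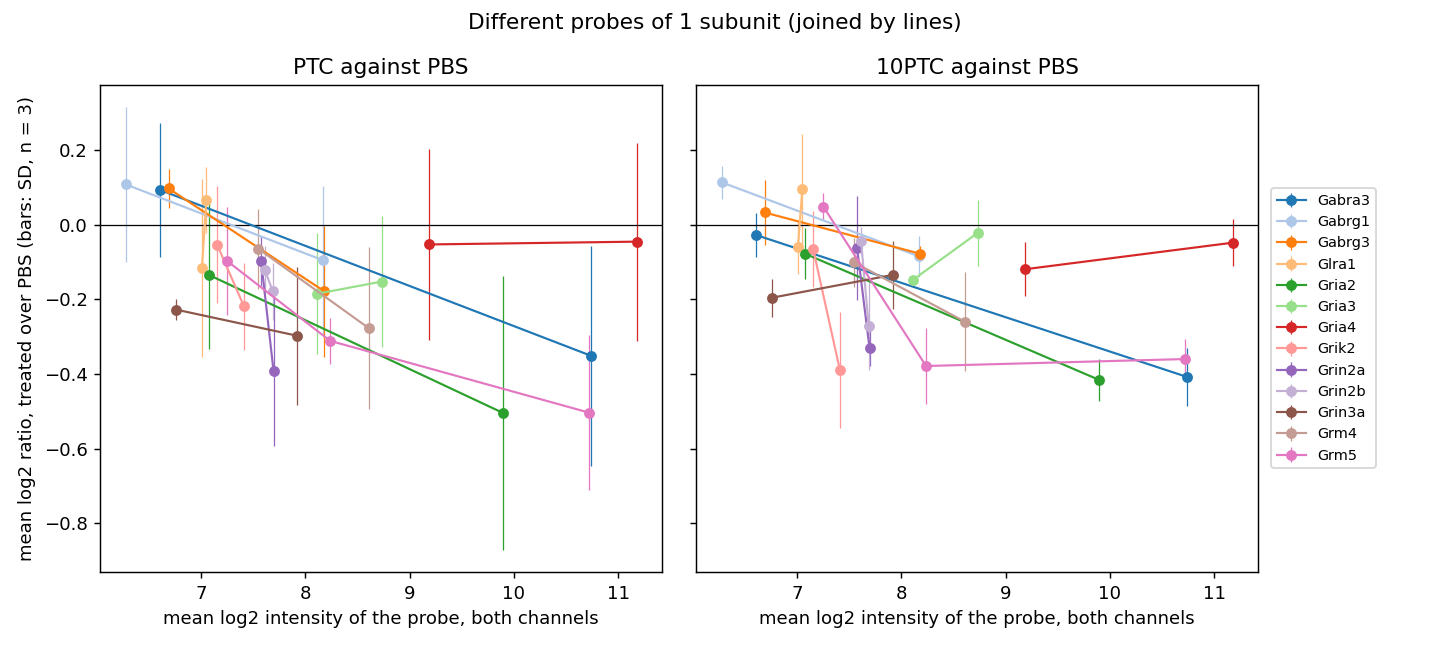
Mean log2 ratio of treated over PBS (y axis, bars are SD over 3 pools) against the mean log2 intensity of the probe (x axis) for the 13 subunits with several probes above background, PTC on the left and 10PTC on the right. A line joins the probes of a subunit, and most lines run downward from the dim to the bright probe.

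Across the 39 subunits, the brighter the probe used, the lower was its ratio (Pearson's r = -0.53 at PTC and -0.50 at 10PTC), where the same correlation over all genes was -0.0088 at PTC and 0.0047 at 10PTC. These points share the arrays and the control RNA, and the correlation is a description. Of the 19 subunits above the median intensity of the members, 11 fell at PTC and 8 at 10PTC, and of the 20 others 9 and 4. Among all genes above that intensity 21.8% were lower at PTC and 17.2% at 10PTC, and among those at or below it 9.01% and 8.08%. With the offset of the background correction at 0 the correlation was -0.35 at PTC and -0.41 at 10PTC, and with the scanner software's processed signals it was -0.28 and -0.35. Computing the correlation under these settings was decided after seeing the data. With those processed signals the median of all members was -0.31 at PTC and -0.20 at 10PTC.

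Receptor subunits outside the named set, 11 in number and listed with earlier results known, had 6 lower at PTC and 5 at 10PTC, and none higher, with medians of -0.33 and -0.20. By comparison, 16.2% of all genes were lower at PTC and 13.3% at 10PTC. The GABA-B receptor subunit Gabbr2 had -0.75 ± 0.13 at PTC (adjusted p = 0.00105) and -0.73 ± 0.16 at 10PTC (adjusted p = 0.0015) (SD, n = 3, limma). The NMDA subunit Grin3b had -0.39 ± 0.11 at PTC (adjusted p = 0.00331) and -0.31 ± 0.084 at 10PTC (adjusted p = 0.00921), and the GABA-B subunit Gabbr1 had -0.33 ± 0.10 at PTC (adjusted p = 0.00373) and -0.20 ± 0.016 at 10PTC (adjusted p = 0.0219). All of these fell at both doses.

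Of 13 genes for the scaffold and assembly of inhibitory receptors, 6 were lower and 3 higher at PTC, and 5 lower and 2 higher at 10PTC. Shares over all genes were 16.2% lower and 16.9% higher at PTC, and 13.3% and 14.4% at 10PTC. Slitrk3, an adhesion protein of inhibitory synapses, had -0.52 ± 0.20 at PTC (adjusted p = 0.00291) and -0.42 ± 0.019 at 10PTC (adjusted p = 0.00771). The trafficking protein gene Trak1 was higher, at 0.26 ± 0.050 at PTC (adjusted p = 0.00722) and 0.35 ± 0.082 at 10PTC (adjusted p = 0.00383), and the GABA receptor-associated family member Gabarapl2 had -0.29 ± 0.039 at PTC (adjusted p = 0.00962) and -0.32 ± 0.14 at 10PTC (adjusted p = 0.00899). Of 8 measured genes of 9 listed for GABA and glycine synthesis and transport, 1 fell at PTC, the vesicular transporter Slc32a1 (-0.27 ± 0.16, adjusted p = 0.0187), and none passed at 10PTC (limma, 0 with an unadjusted p under 0.05), where Slc32a1 had -0.078.

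On the glutamate side, 13 of 28 scaffold and auxiliary subunit genes fell at PTC and 3 at 10PTC, and none rose. The shares lower over all genes were 16.2% at PTC and 13.3% at 10PTC. Cacng2, the AMPA auxiliary subunit stargazin, had -0.52 ± 0.15 at PTC (adjusted p = 0.00714) and -0.35 ± 0.25 at 10PTC (adjusted p = 0.0314). Cnih3, another AMPA auxiliary subunit gene, had -0.36 ± 0.14 at PTC (adjusted p = 0.00777) and -0.41 ± 0.12 at 10PTC (adjusted p = 0.00688). Its relative Cnih2 had -0.49 ± 0.24 at PTC (adjusted p = 0.00592) and -0.24 ± 0.082 at 10PTC (adjusted p = 0.0739). The postsynaptic scaffold gene Dlgap1 had -0.42 ± 0.16 at PTC (adjusted p = 0.00479) and -0.35 ± 0.099 at 10PTC (adjusted p = 0.0115). Glutamate transport genes had 2 of 9 lower and 1 higher at PTC and 1 lower and 2 higher at 10PTC. These counts are near the shares over all genes, of which 16.9% were higher at PTC and 14.4% at 10PTC. Glul, the glutamine synthetase of Müller glia, had -0.64 ± 0.21 at PTC (adjusted p = 0.00204) and -0.61 ± 0.077 at 10PTC (adjusted p = 0.00322), and Slc1a3, their main glutamate transporter, had 0.44 ± 0.25 at PTC (adjusted p = 0.00848) and 0.45 ± 0.037 at 10PTC (adjusted p = 0.01). Slc1a2, another glutamate transporter, had 0.039 ± 0.069 at PTC (adjusted p = 0.52) and 0.20 ± 0.032 at 10PTC (adjusted p = 0.0172), and Slc1a7, a transporter of photoreceptors and bipolar cells, had -0.30 ± 0.11 at PTC (adjusted p = 0.00754) and -0.17 ± 0.088 at 10PTC (adjusted p = 0.0608).

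Markers of several retinal neurons were lower too. For comparison, 16.2% of all genes were lower and 16.9% higher at PTC, and 13.3% and 14.4% at 10PTC. Of 11 ganglion cell markers, 10 were lower at PTC and 9 at 10PTC, with array medians of -0.77 to -0.35 at PTC and -0.56 to -0.36 at 10PTC. Of 10 bipolar cell markers measured, 6 and 4 were lower (array medians -0.59 to -0.16 and -0.34 to -0.26), and of 10 amacrine cell markers, 6 and 3 (-0.48 to -0.13 and -0.18 to -0.17). Of 5 horizontal cell markers, 3 and 1 were lower. Of 7 cone markers, 3 were lower and 1 higher at PTC and 2 lower at 10PTC, with medians of -0.15 and -0.085. Rod markers had medians of 0.016 at PTC and 0.17 at 10PTC, and none was lower. Microglia markers were higher, 6 of 7 at each dose, with medians of 1.24 and 1.07. PTC pool 1 had the lowest median of the subunits and of the ganglion, bipolar, amacrine, horizontal, rod and cone markers, and the highest of the microglia markers. The part of these cell types in the subunit ratios was not tested.

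**Figure D5:**
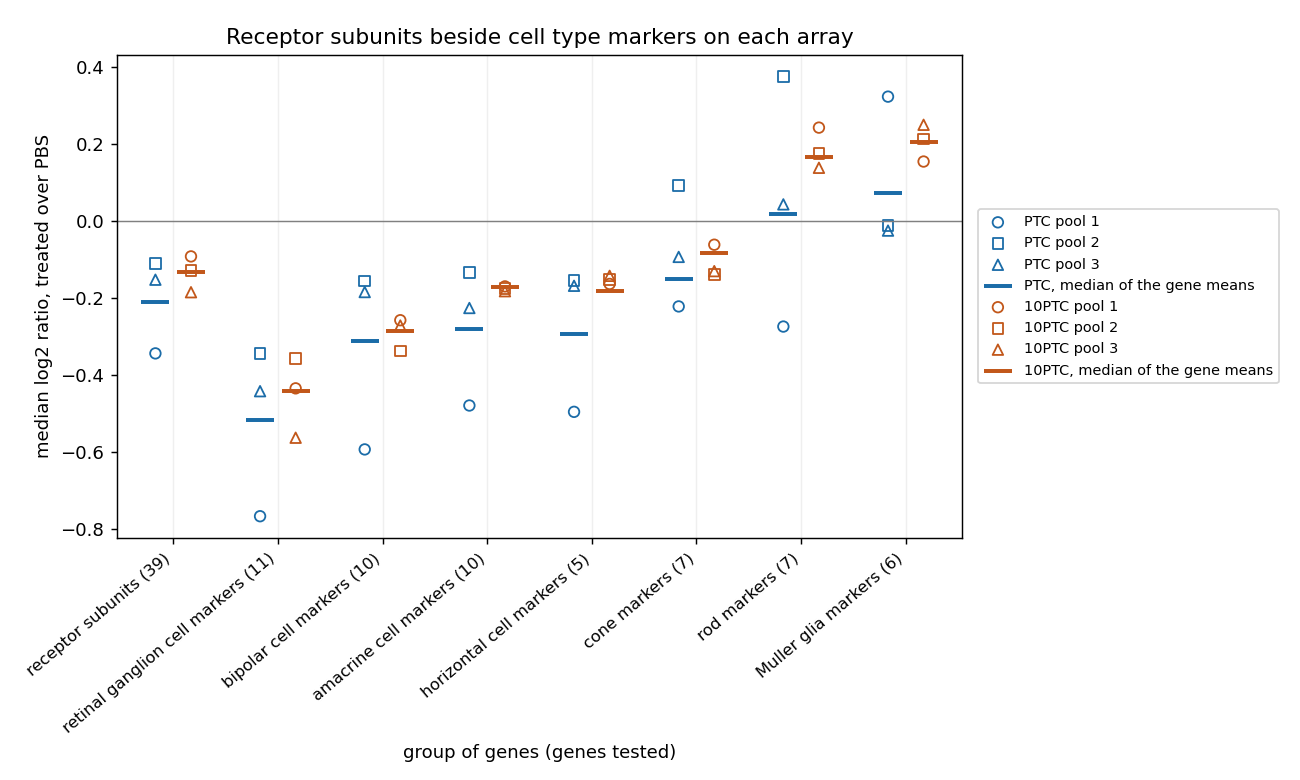
Median log2 ratio of treated over PBS (y axis) of the 39 subunits and of the marker genes of 7 retinal cell types (x axis, number tested in brackets), with open symbols for single arrays (PTC left, 10PTC right of each tick) and bars for medians of the gene means. Ganglion cell markers lie lowest and the subunits lie between the cone markers and the amacrine and horizontal cell markers.

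On each of the 6 arrays the median of the ganglion cell markers was below that of the subunits.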

How the data were processed

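Retinal RNA was measured on 6 Agilent 2-colour arrays (design 026655, mm9 probe coordinates). Intensity values and log10 ratios per spot stand in the deposited scanner files, written by Agilent Feature Extraction 10.7.3.1 per the file headers (9.3.2.1 per the submitters' processing notes). A table of log2 ratios by the authors was also deposited. Its columns followed the arrays' log10 ratios (r of 0.983 to 1.00, slope 3.32), so that it runs as Cy5 over Cy3; column medians were -0.075, 0.039, 0.015, 0.015, 0.0075 and -0.017, and the centring stays unknown.

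Mean signals were corrected against the median local background with normexp (offset 50) and normalized within arrays by loess (control and outlier spots at weight 0) in limma 3.58.1, R 4.3.3. Spots of a probe were averaged, probes had to be well above background in a channel on 3 of 6 arrays, and the brightest probe of a gene was used. Another 2 probes whose accession or synonym led to a member under another name were not used. A model with a coefficient per dose was fitted to 26136 genes, with Benjamini-Hochberg adjustment over all of them and a threshold of 0.05. Median Cy5 signals were 187 to 347 and Cy3 signals 153 to 221, and the number of arrays limits the precision. The spread behind each p-value is that between tubes of 4 retinas. It was pooled over both doses (4 residual degrees of freedom) and moderated over all genes (3.41 prior degrees of freedom). The SD printed beside a mean is that of its own dose, so the p-value does not follow from that SD. The sources used here do not say how many pools the control RNA came from.

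The 41 members and all lists were chosen with earlier results of these data known, and classes are described by counts and medians. Named with all values were members called at both doses or between doses, and the 2 highest and 2 lowest of each dose; of each pathway list, up to 4 genes of smallest p over both doses, of which 2 are not reported here. Equal replicate numbers did not pair the pools (correlation of deviations -0.27, 0.15 and 0.20). The steps were tested on simulated data. At PTC they recovered 0% of simulated 1.1-fold changes, 46% of 1.25-fold and 96% of 1.5-fold changes. Between the doses these shares were 0%, 4% and 74%, so small differences between the doses would mostly be missed. Far fewer genes were changed in the simulation than were called at PTC, so the shares at PTC need not hold for the data. Alternatives changed the background correction, normalization, filter, probe rule, fit, weights, blocks and arrays used; a correction for probe base composition was added after seeing the data.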

Additional observations from a re-analysis of the deposited data

How the results depend on the processing

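Across the alternatives the medians of all members, GABA-A, ionotropic and metabotropic receptors stayed below 0 at both doses. Of values of subunits called at PTC under other settings, 421 were still called and 124 were not, and 18 values of uncalled subunits became called; at 10PTC these numbers were 279, 92 and 46, and between the doses 2 values became called.

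At PTC, where 20 subunits were lower and 1 higher, 13 were lower under median centring and with slide as a block, 10 with each dose fitted alone, 0 within slide 1 and 4 within slide 2. The number higher was 0 with processed signals, the authors' table, each dose alone, within either slide, under the replicate block and with the correction for probe base composition, 2 with an offset of 0 and 6 with array weights. Leaving out an array gave 14 to 18 lower and 0 to 2 higher. At 10PTC, with 12 lower and 3 higher, 7 were lower with processed signals and with the authors' table, 24 with array weights and 0 with slide as a block. The number higher was 1 with processed signals, median centring, the authors' table, probes above background on all arrays or the replicate block, and 0 with slide as a block. Leaving out an array gave 0 to 16 lower and 0 to 3 higher. Between the doses array weights called 2 higher. Counts over all genes are given in this text for only some of these settings. Without them, a change in the number of subunits called is no result about the subunits.

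The ionotropic median at PTC was -0.43 with processed signals, -0.34 with an offset of 0 and -0.41 in the authors' table; at 10PTC it was -0.21 and -0.20 in the first pair of settings. The metabotropic median under median centring was -0.053 at PTC and -0.032 at 10PTC. The GABA-A median at 10PTC was -0.074 under median centring and -0.23 with slide as a block. The median of all members at 10PTC was -0.20, -0.18, -0.085 and -0.19 with processed signals, an offset of 0, median centring and the authors' table, and -0.20 with slide as a block. Median centring turned the sign of 10 subunits at 10PTC and 7 at PTC. Of those called under either setting these were, at 10PTC, Gabra5 (-0.12), Gabre (-0.15, adjusted p = 0.0296) and Grm3 (-0.029). It also called 8210 genes higher and 4218 lower at PTC, and 9640 and 5000 at 10PTC. The cause of these shifts was not tested.

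The replicate block left 17 lower and 0 higher at PTC and 11 lower and 1 higher at 10PTC (3176 and 2286 of all genes lower). The numbers do not pair the pools, since the correlations of deviations were -0.27, 0.15 and 0.20. Dim probes limit Gabra5, Gabre, Glra4, Grin1 and Grm3, which fail a filter of both channels on all arrays, and Gabra6 and Gabrq.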
